A study of Homo sapiens with 6 samples.

Results

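The 40 genes described here make cholesterol and fatty acids, control that synthesis, or move and store its products. They were taken from the table of 19960 genes by symbol, and each symbol was found once. Of these, 24 belong to the sterol side and 16 to the fatty acid side. All 24 sterol genes and 14 fatty acid genes had a mean normalized count of at least 10 over all libraries and were tested. ELOVL5, a fatty acid elongase, and PLIN2, a coat protein of lipid droplets, did not reach that mean. The RNA came from MKN28, an established human gastric cancer cell line, grown in RPMI 1640 with fetal bovine serum. Cells stably expressing a scrambled hairpin plasmid (shSCR, 3 libraries) were set against cells stably expressing a hairpin plasmid against LTBP1 (shLTBP1, 3 libraries), to ask how expression differs when this latent TGF-beta binding protein is depleted. How many hairpin sequences were used, and whether the stable cells were pools or single clones, is not given in the sources used here. Whether replicate libraries came from separate cultures is not stated in the labels, so the spread behind each p-value is that of these libraries and could be technical in part.

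Cells sense cholesterol in the membrane of the endoplasmic reticulum. The transcription factors SREBP-1 and SREBP-2, encoded by SREBF1 and SREBF2, are made there as inactive membrane proteins bound to the escort protein SCAP. When sterol is scarce, SCAP carries them to the Golgi, where proteases release the part that enters the nucleus. When sterol is plentiful, INSIG1 and INSIG2 hold SCAP back. SREBP-2 acts mainly on genes of cholesterol synthesis and uptake, and SREBP-1 mainly on genes of fatty acid synthesis. A separate sensor, the liver X receptors (LXR), is activated by oxysterols, and induces cholesterol efflux genes and SREBF1.

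Library totals lay between 30479879 and 30941103 normalized counts, which no longer show sequenced depth. LTBP1 was at 964 to 1011 in shSCR and 49.0 to 66.7 in shLTBP1, so 5.92% of its control level remained. Pearson's r over tested genes, which are not independent, was 0.989 to 0.992 within groups and 0.9585 to 0.962 between them. The summed level of 6 epithelial markers was 287672 to 311548 in shLTBP1 and 324237 to 344682 in shSCR. Its members went both ways: EPCAM (log2 fold change -1.12, adjusted p = 1.39e-07), CDH1 and KRT18 fell, CLDN4 and KRT19 rose, and KRT8 did not pass. With the local level of neighbouring genes subtracted, 1 of the 6 rose and 4 fell, and EPCAM, on chromosome 2, was at -0.58. Of 5 blood markers none reached a mean of 10. Of 5 fibroblast markers, COL1A1 fell and LUM, listed at 0 in every shSCR library, was at 36.6 to 52.0 in shLTBP1; the list summed to 1094 to 1337 in shSCR and 706 to 929.9 in shLTBP1. Of 4 endothelial markers, VWF was tested and did not pass; the list summed to 35.6 to 51.2 in shSCR and 23.9 to 30.5 in shLTBP1. Adipocyte markers bear on lipid storage: ADIPOQ and LEP were listed at 0 in every library, while the summed level of the 5 genes went from 9.23 to 18.5 in shSCR to 61.6 to 81.2 in shLTBP1 through the fatty acid binding protein FABP4. The part of these markers in the results was not tested. In these bulk libraries, more cells of a kind and more RNA per cell cannot be told apart.

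INSIG1, SCD, HMGCS1 and SREBF2 were picked from the genes that rose in shLTBP1. The DNA just upstream of their first exons is shown here because sterol control of such genes acts largely through short promoter motifs. The stretches come from RefSeq promoter windows on GRCh38 (p14), the assembly hg38 names, and end before the first base of any GENCODE 29 exon of the gene. Capitals mark matches to CCAAT, the letters bound by NF-Y, and to TCACNCCAC, a form of the sterol regulatory element bound by SREBPs, on either strand.
INSIG1, plus strand, chr7:155297628-155297775: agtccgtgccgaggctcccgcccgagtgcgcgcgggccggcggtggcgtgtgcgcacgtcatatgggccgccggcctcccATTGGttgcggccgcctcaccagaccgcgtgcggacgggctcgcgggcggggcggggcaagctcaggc
SCD, plus strand, chr10:100346983-100347123: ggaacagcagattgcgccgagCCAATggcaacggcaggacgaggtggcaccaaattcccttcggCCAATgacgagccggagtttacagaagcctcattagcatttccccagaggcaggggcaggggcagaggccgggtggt
HMGCS1, minus strand, chr5:43313513-43313662: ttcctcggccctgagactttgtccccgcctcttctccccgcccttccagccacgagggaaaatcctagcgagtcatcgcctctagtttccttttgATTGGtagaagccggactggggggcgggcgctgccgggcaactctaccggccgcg
SREBF2, plus strand, chr22:41832855-41833078: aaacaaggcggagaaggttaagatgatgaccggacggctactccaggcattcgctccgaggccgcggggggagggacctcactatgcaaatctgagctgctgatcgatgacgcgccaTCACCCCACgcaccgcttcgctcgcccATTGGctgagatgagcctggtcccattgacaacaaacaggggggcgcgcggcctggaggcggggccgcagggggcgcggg

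All 4 stretches hold CCAAT or its complement, and the SREBF2 stretch also holds the sterol element. Windows from 250 bases before to 50 bases after a start were available for 35 of the 40 genes, 48 windows in all, since some genes have several starts. The 5 without one were SQLE, DGAT2, FASN, FDFT1 and DGAT1. CCAAT on either strand was found in 27 of the 48 windows (56.2%) and in 34.6% of all 35116 RefSeq windows. Among the windows of sterol genes 18 of 28 held it, and among those of fatty acid genes 9 of 20. CCAAT was also found for genes that fell, namely LSS, SC5D, DHCR7, HSD17B7, ACLY, ACACA and ACSL3. It was not found for INSIG2, NPC1, ACSL4, ACSL5 and LPIN1, which fell as well. Some genes that did not pass held it too, such as EBP, MSMO1, NSDHL and GPAM. Among genes that rose and had a window, only SREBF1 lacked it. TCACNCCAC was found in SREBF2 alone (2.08% of the 48 windows), and in 1.13% of all windows. CACCCCAC, whose letters overlap that element, was likewise found in SREBF2 alone (2.08%), against 2.79% of all windows. The E-box CACGTG was found in 7 of the 48 windows (14.6%), of ELOVL5, INSIG1, LSS, PLIN2, SC5D and SCAP, against 7.26% of all windows. These matches describe the letters of short windows and do not show binding, and their part in the changes was not tested.

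Both sides of the pathway split between rises and falls. Of 24 tested sterol genes, 8 rose, 7 fell and 9 did not pass a limma adjusted p of 0.05. Of 14 tested fatty acid genes, 3 rose, 7 fell and 4 did not pass. Among all 12789 tested genes, 26.3% rose and 26.8% fell, 53.1% in all. The sterol shares, 33.3% and 29.2%, lay near that background, while on the fatty acid side 21.4% rose and 7 of 14 fell. The median log2 fold change of shLTBP1 over shSCR, on the log2(normalized count + 1) scale used throughout, was 0.06 for sterol genes, -0.23 for fatty acid genes and 0.0038 for all tested genes. With GC and length trends removed these medians were 0.00988 for sterol and -0.104 for fatty acid genes, and the fatty acid median was -0.137 with the local level of neighbouring genes subtracted. The values of the groups did not overlap for 17 sterol and 11 fatty acid genes, against 60.8% of all tested genes. Changes of 2-fold or more were seen in 6 genes: INSIG1, SREBF1 and SCD rose, and INSIG2, ACSL4 and LPIN1 fell; 8.92% of all tested genes changed that much. Without shSCR replicate 1, only 4 sterol genes fell.

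**Figure D1:**
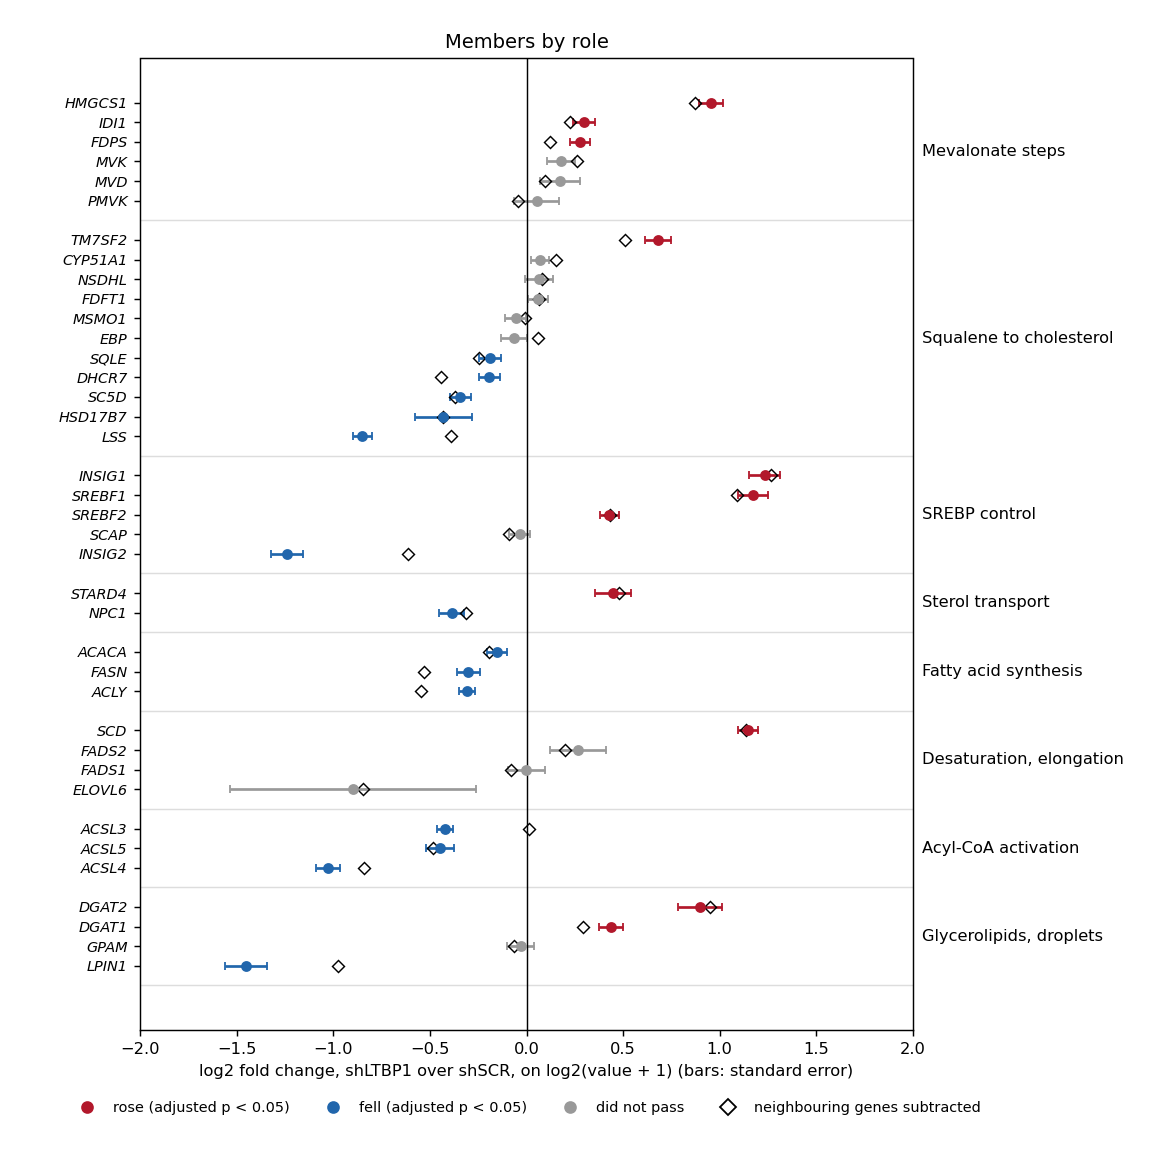
Log2 fold change of each tested gene (x axis, shLTBP1 over shSCR on the log2(value + 1) scale; filled points with standard error bars), grouped by role; open diamonds give the value after the median of neighbouring genes is subtracted. INSIG1, SREBF1 and SCD lie furthest to the right and LPIN1 and INSIG2 furthest to the left, and the diamonds of INSIG2, LSS, ACSL3 and LPIN1 lie closer to 0.

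Of the 5 control genes, 3 rose (60.0%) and 1 fell (20.0%), against 26.3% and 26.8% of all tested genes. INSIG1 (ENSG00000186480), the sterol sensor that SREBPs themselves induce, had normalized counts of 1019, 842 and 887 in shSCR and 2300.1, 2082 and 2070.4 in shLTBP1. Every shLTBP1 library was above every shSCR library, and the means, 916 ± 91.9 and 2151 ± 129 (SD, n = 3 each), stood in a ratio of 2.35 (log2 fold change 1.23, SE 0.08, adjusted p = 1.29e-06). INSIG2, its paralog, went the other way, from 1278, 1252 and 1225 in shSCR to 475, 532 and 586 in shLTBP1. Its groups did not overlap, and its log2 fold change was -1.24 (SE 0.08, adjusted p = 1.48e-06). INSIG2 lies on chromosome 2 (118088452 to 118110997, plus strand), where the 852 tested genes were lower as a whole, with a median log2 fold change of -0.56. With the median of the 25 tested neighbours on each side subtracted, INSIG2 was at -0.62 (adjusted p = 0.000172). Here and below, that median was taken as fixed, so such a p-value leaves out how widely the neighbours vary. In shSCR, per kilobase of its longest coding transcript, INSIG2 was the more abundant of the pair (483 against 304 normalized counts per kb), and in shLTBP1 INSIG1 was (715 against 205).

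Both SREBP genes rose. SREBF1 had normalized counts of 2993, 2612 and 3324 in shSCR and 6546, 6721 and 6803 in shLTBP1, with no overlap. The means were 2976 ± 356 and 6690.2 ± 131 (SD, n = 3 each), a log2 fold change of 1.17 (SE 0.08, adjusted p = 1.42e-06). The table holds 1 value per gene, so the SREBP-1a and SREBP-1c transcripts of SREBF1 cannot be told apart, and its exons overlap those of RAI1 on the opposite strand. SREBF2, which drives the cholesterol genes, was at 4897, 4594 and 4635 in shSCR and at 6529.8, 5982 and 6527 in shLTBP1. Its groups did not overlap either, and its rise was smaller (log2 fold change 0.43, SE 0.05, adjusted p = 7.79e-05). SCAP was at 1690.0, 1777 and 1724 in shSCR and 1745, 1721 and 1601 in shLTBP1, with overlapping groups (log2 fold change -0.04, SE 0.06, adjusted p = 0.619). Among genes outside the 40 that act with SCAP, the site-1 protease MBTPS1 had a log2 fold change of 0.17 (adjusted p = 0.0148) and the site-2 protease MBTPS2 of 0.04 (adjusted p = 0.66); both were picked here for their role, after their values were seen.

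**Figure D2:**
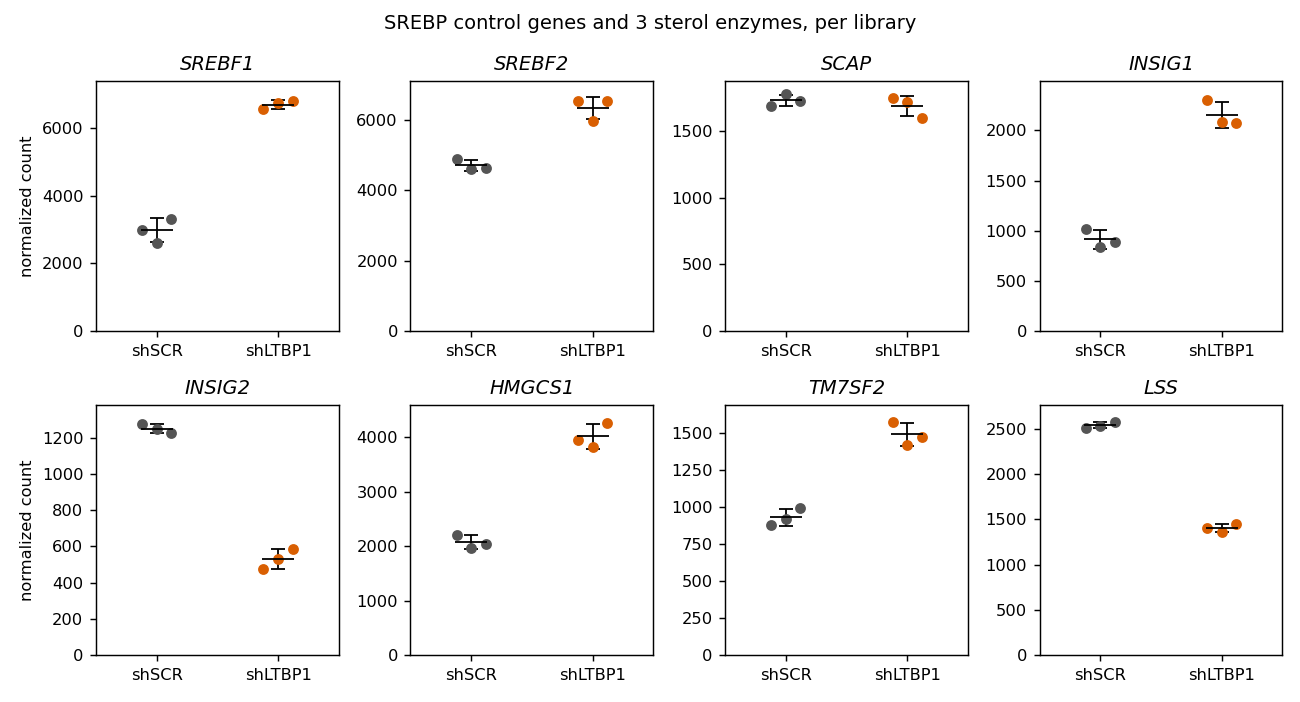
Normalized counts (y axis, from 0, each panel with its own scale) of 5 SREBP control genes and 3 sterol enzymes in every library; points are libraries, bars the mean and SD of 3. SREBF1, SREBF2, INSIG1, HMGCS1 and TM7SF2 are higher in all 3 shLTBP1 libraries, INSIG2 and LSS lower, and SCAP overlaps.

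In the mevalonate steps, which turn acetyl units into farnesyl diphosphate, 3 of 6 tested genes rose and none fell. Among all tested genes 26.3% rose and 26.8% fell, and 6 genes are few for a comparison with these shares. HMGCS1, the synthase that makes HMG-CoA, was at 2211, 1967 and 2033 in shSCR and 3957, 3827 and 4263 in shLTBP1. All shLTBP1 values were higher, and the means stood in a ratio of 1.94 (log2 fold change 0.96, SE 0.06, adjusted p = 1.28e-06). IDI1, which isomerizes isopentenyl diphosphate, was at 1125, 1149 and 1106 against 1427, 1381 and 1347 (log2 fold change 0.30, SE 0.055, adjusted p = 0.00134). FDPS, which joins these units into farnesyl diphosphate, was at 2615, 2544 and 2569 against 3332, 3018 and 3024. FDPS has pseudogene copies that can share its reads. Its log2 fold change of 0.28 (SE 0.05, adjusted p = 0.00174) became 0.12 with neighbours subtracted (adjusted p = 0.0846). The kinases MVK and PMVK and the decarboxylase MVD did not pass, at 0.18, 0.05 and 0.18. The MVK values, 625 to 637 in shSCR and 657 to 745 in shLTBP1, did not overlap. MVK passed without shLTBP1 replicate 1 (adjusted p = 0.0301), with neighbours subtracted (0.0133, adjusted p) and with upper quartile scaling (0.0489, adjusted p), and was at 0.05 with GC and length trends removed (adjusted p = 0.595).

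After farnesyl diphosphate, in the steps through squalene to cholesterol, 5 of 11 tested genes (45.5%) fell and 1 (9.09%) rose. The same shares of all tested genes were 26.8% and 26.3%. The fall that stood out in size was in LSS, the cyclase that makes lanosterol, at 2515, 2530.2 and 2576 in shSCR and 1407, 1365 and 1453 in shLTBP1. Its groups were far apart (log2 fold change -0.85, SE 0.05, adjusted p = 7.75e-07). LSS lies on chromosome 21 (46188141 to 46228824, minus strand), where the 129 tested genes had a median of -0.39, and with neighbours subtracted it was at -0.39 (adjusted p = 0.000138). TM7SF2, a sterol C14 reductase whose exons overlap VPS51 on the same strand, rose from 877, 915 and 992 to 1573, 1419 and 1474 (log2 fold change 0.68, SE 0.07, adjusted p = 2.4e-05). LBR, an inner nuclear membrane protein that carries the same reductase activity, is not among the 40 and fell from 4639 ± 33.4 to 2288 ± 137 (SD, n = 3 each; log2 fold change -1.02, adjusted p = 3.87e-07).

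SC5D, a sterol desaturase late in the pathway, was at 1773, 1734 and 1787 in shSCR and 1399.8, 1339.6 and 1435 in shLTBP1, without overlap (log2 fold change -0.34, SE 0.05, adjusted p = 0.000436). HSD17B7, a sterol ketone reductase, was at 317, 408 and 275 against 266, 217 and 251. Its fall (log2 fold change -0.43, SE 0.15, adjusted p = 0.032) lost its call when shSCR replicate 1 or 2, or shLTBP1 replicate 2 or 3, was left out (adjusted p = 0.056 to 0.115). The call was also lost with variance moderation without the trend (adjusted p = 0.0698). Reads of HSD17B7 can be shared with its pseudogene copies, and how they were divided is uncertain. The falls of SQLE, the squalene epoxidase, and DHCR7, the final reductase, were small, each with a log2 fold change of -0.19. SQLE lost its call without shSCR replicate 1 or 2 (adjusted p = 0.0732 and 0.0554), and DHCR7 without shSCR replicate 1 (adjusted p = 0.0669). DHCR7 was further down with neighbours subtracted (-0.44, adjusted p = 0.000148) and with GC and length trends removed (-0.31, adjusted p = 0.00135). FDFT1, CYP51A1, MSMO1, NSDHL and EBP did not pass, with log2 fold changes between -0.06 and 0.07; CYP51A1 passed with neighbours subtracted (0.15, adjusted p = 0.0215). Thus the mevalonate genes that passed were higher and the later genes that passed, other than TM7SF2, were lower. Several of these calls were fragile. SQLE, DHCR7 and HSD17B7 lost theirs when certain single libraries were left out, and FDPS with neighbours subtracted. Many genes of both parts did not pass.

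The 2 sterol transport genes moved in opposite directions. STARD4, a soluble carrier of cholesterol between membranes, was at 1165, 994 and 1088 in shSCR and 1458, 1317 and 1666 in shLTBP1. The groups did not overlap (log2 fold change 0.45, SE 0.09, adjusted p = 0.00262). NPC1, which exports cholesterol from lysosomes and whose exons overlap RMC1 on the opposite strand, was at 1472, 1501 and 1643 against 1130.2, 1159 and 1236, all lower (log2 fold change -0.39, SE 0.065, adjusted p = 0.000719). Its soluble partner NPC2, outside the 40 and named after its value was seen, had a log2 fold change of -0.36 (adjusted p = 0.000839).

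The 3 enzymes that make palmitate all fell, by small amounts, against 26.8% of all tested genes. ACLY, which supplies cytosolic acetyl-CoA from citrate, was at 7361, 7502 and 7349.7 in shSCR and 6076, 5757 and 6111 in shLTBP1 (log2 fold change -0.31, SE 0.04, adjusted p = 0.000212). FASN, the fatty acid synthase, was at 29474, 33552 and 31876 against 26674, 26439 and 23912 (log2 fold change -0.30, SE 0.06, adjusted p = 0.00209). ACACA, the carboxylase that makes malonyl-CoA, was at 5556, 5386 and 5679.5 against 5092, 4678 and 5212. None of these groups overlapped, but the ACACA difference was the smallest (log2 fold change -0.15, SE 0.05, adjusted p = 0.0332). ACACA lost its call when shSCR replicate 1 or 3, or shLTBP1 replicate 1 or 2, was left out (adjusted p = 0.0532 to 0.11), and with trends of GC content and transcript length removed its log2 fold change was 0.07 (adjusted p = 0.279). It also did not pass with quantile scaling (adjusted p = 0.0674) or with variance moderation without the trend (adjusted p = 0.0808). ACLY and FASN lie in parts of chromosome 17 whose neighbours were slightly higher, and were at -0.55 and -0.53 with neighbours subtracted.

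SCD (ENSG00000099194), which puts the first double bond into saturated fatty acids, moved against the synthesis enzymes. Its normalized counts were 16661, 16108 and 16546 in shSCR and 36526, 34131 and 38693 in shLTBP1. All shLTBP1 values lay above all shSCR values, and the means, 16438 ± 292 and 36450.3 ± 2282 (SD, n = 3 each), stood in a ratio of 2.22 (log2 fold change 1.15, SE 0.05, adjusted p = 1.19e-07). Per kilobase of transcript, FASN was first and SCD second of the 38 tested genes in shSCR (3693 and 3066 normalized counts per kb), and in shLTBP1 SCD was first (6798 per kb) and FASN second (2998 per kb). SCD5, the other human stearoyl-CoA desaturase and not among the 40, fell from 844 ± 8.59 to 358 ± 23.2 (SD, n = 3 each; log2 fold change -1.24, adjusted p = 8.76e-07).

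The desaturases and elongases of longer chains did not pass. FADS1, the delta-5 desaturase, was at 274, 322 and 293 in shSCR and 286, 293 and 309 in shLTBP1 (log2 fold change 0.00, adjusted p = 0.998). FADS2, the delta-6 desaturase, was at 94.1, 96.3 and 79.1 against 118, 104 and 103; the groups did not overlap, but the difference did not pass (log2 fold change 0.27, adjusted p = 0.153). ELOVL6, which extends palmitate to stearate, varied within both groups, at 313, 93.2 and 125 in shSCR and 45.6, 256 and 46.9 in shLTBP1. Its log2 fold change of -0.90 had an SE of 0.64 (adjusted p = 0.261), and without shLTBP1 replicate 2 it was -1.72 (adjusted p = 0.00988). ELOVL5 was listed at 0 in all shSCR libraries and at 0, 0.688 and 1.44 in shLTBP1. A listed 0 can be a failed estimate, so no difference is read from it.

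The 3 acyl-CoA synthetases among the 40, which activate free fatty acids for use, all fell, against 26.8% of all tested genes. With neighbours subtracted 2 of them fell. ACSL4, which prefers arachidonate and other polyunsaturated chains, was at 1793, 1848 and 1878 in shSCR and 940.5, 834 and 934 in shLTBP1, with no overlap (log2 fold change -1.03, SE 0.06, adjusted p = 1.03e-06). ACSL5 was at 1422, 1667 and 1681 against 1159, 1183 and 1146 (log2 fold change -0.45, SE 0.07, adjusted p = 0.000574). ACSL3, which serves lipid droplet growth, was at 9186, 9035 and 9219 against 6927, 6646 and 6904 (log2 fold change -0.42, SE 0.04, adjusted p = 1.7e-05). ACSL3 lies on chromosome 2 (222860934 to 222944639, plus strand), and with neighbours subtracted its value was 0.01 (adjusted p = 0.783), while ACSL4 and ACSL5 were at -0.84 and -0.48.

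Among genes of glycerolipid assembly and storage, the acyltransferases for the last step of triglyceride synthesis rose. DGAT2 was at 164, 133 and 135 in shSCR and 265, 274 and 266 in shLTBP1, without overlap (log2 fold change 0.90, SE 0.12, adjusted p = 0.000124). DGAT1, whose exons overlap HSF1 on the opposite strand, was at 1788, 1828 and 1626 against 2339.6, 2491 and 2259.7 (log2 fold change 0.44, SE 0.06, adjusted p = 0.000274). LPIN1, the phosphatidate phosphatase of the step before, fell from 624, 657 and 623 to 196, 245 and 257. This was the widest fall among the tested genes of the 40 (log2 fold change -1.45, SE 0.11, adjusted p = 3.42e-06). LPIN1 lies on chromosome 2 (11677595 to 11827409, plus strand) and was at -0.98 with neighbours subtracted (adjusted p = 5.68e-05). GPAM, which starts glycerolipid synthesis in mitochondria, was at 1507, 1552 and 1515 against 1570.3, 1340.4 and 1582 and did not pass (log2 fold change -0.03, adjusted p = 0.744). PLIN2 was listed at 0 in every library but shLTBP1 replicate 3, at 1.88. Such a listed 0 can be a failed estimate here too, so neither absence nor a difference is read from it.

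**Figure D3:**
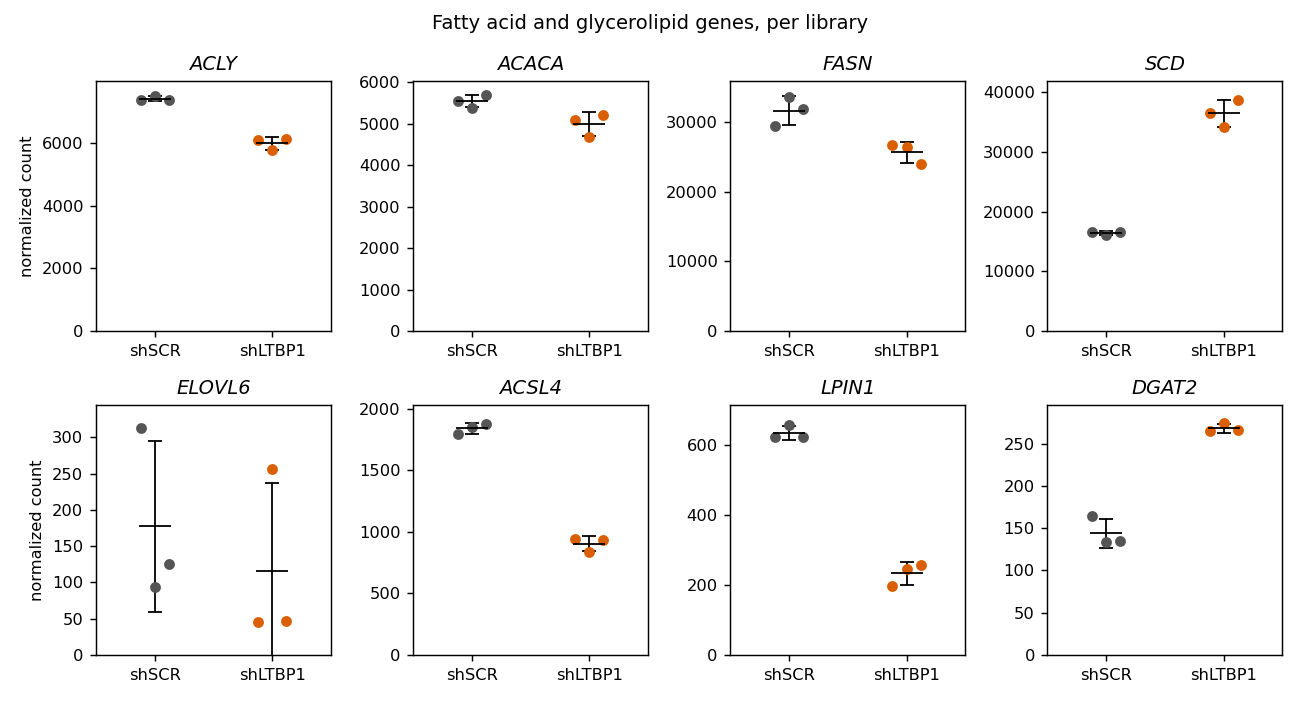
Normalized counts (y axis, from 0, each panel with its own scale) of 8 fatty acid and glycerolipid genes in every library; points are libraries, bars the mean and SD of 3. SCD and DGAT2 are higher in all shLTBP1 libraries, ACLY, ACACA, FASN, ACSL4 and LPIN1 lower, and ELOVL6 varies within both groups.

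In 3 lists of further pathway genes, written from general knowledge but with earlier results of these data known, the pattern differed by list. Of 8 LXR receptors and target genes, all tested, 6 rose (75.0%) and 1 fell (12.5%), against 26.3% and 26.8% of all tested genes. The median of these 8 was 0.55 (log2 fold change). ABCG1, a sterol efflux transporter, was at 485, 438 and 492 in shSCR and 2009.8, 2057 and 2011 in shLTBP1 (log2 fold change 2.10, SE 0.07, adjusted p = 1.5e-08). SMPDL3A, a phosphodiesterase induced by LXR, was at 164, 167 and 145 against 635, 767 and 688 (log2 fold change 2.13, SE 0.10, adjusted p = 2.3e-07). Neither gene's groups overlapped. ABCG1 rose although its chromosome 21 neighbours were lower, and was at 2.49 with them subtracted.

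The other genes named from that list were chosen after their values were seen. MYLIP, a ubiquitin ligase for lipoprotein receptors, rose by 1.02 on the log2 scale, and NR1H3, which encodes LXR alpha, by 0.58. NR1H2, which encodes LXR beta, rose by 0.34 and the efflux transporter ABCA1 by 0.52. LPCAT3 did not pass, at -0.05. With neighbours subtracted 4 genes of the list rose, as NR1H2 and ABCA1 no longer passed (adjusted p = 0.157 and 0.102). ABCA1 also lost its call when any shSCR replicate, or shLTBP1 replicate 1 or 3, was left out (adjusted p = 0.0612 to 0.109).

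Of 18 tested further sterol genes, 4 rose (22.2%) and 6 fell (33.3%), against 26.3% and 26.8% of all tested genes (median -0.06). STARD3, a late endosomal sterol carrier, had a log2 fold change of 0.29 (adjusted p = 0.0127), and lost its call without shSCR replicate 2 or 3 (adjusted p = 0.0503 and 0.0541) and with GC and length trends removed (0.15, adjusted p = 0.147). With LBR, the widest falls included SOAT1, which esterifies cholesterol for storage, from 2801 ± 5.94 to 1712 ± 244 (SD, n = 3 each; log2 fold change -0.72, adjusted p = 9.74e-05). Of 21 tested further fatty acid genes, 5 rose (23.8%) and 8 fell (38.1%), and the median was -0.17. With neighbours subtracted 3 rose and 7 fell, with a median of -0.06. ACSS2, which makes acetyl-CoA from acetate, rose by 0.29 on the log2 scale and MCAT, of mitochondrial fatty acid synthesis, by 0.25, whereas FADS3, of the same gene cluster as FADS1 and FADS2, fell by 0.97. MCAT was at 0.13 with neighbours subtracted (adjusted p = 0.149).

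**Figure D4:**
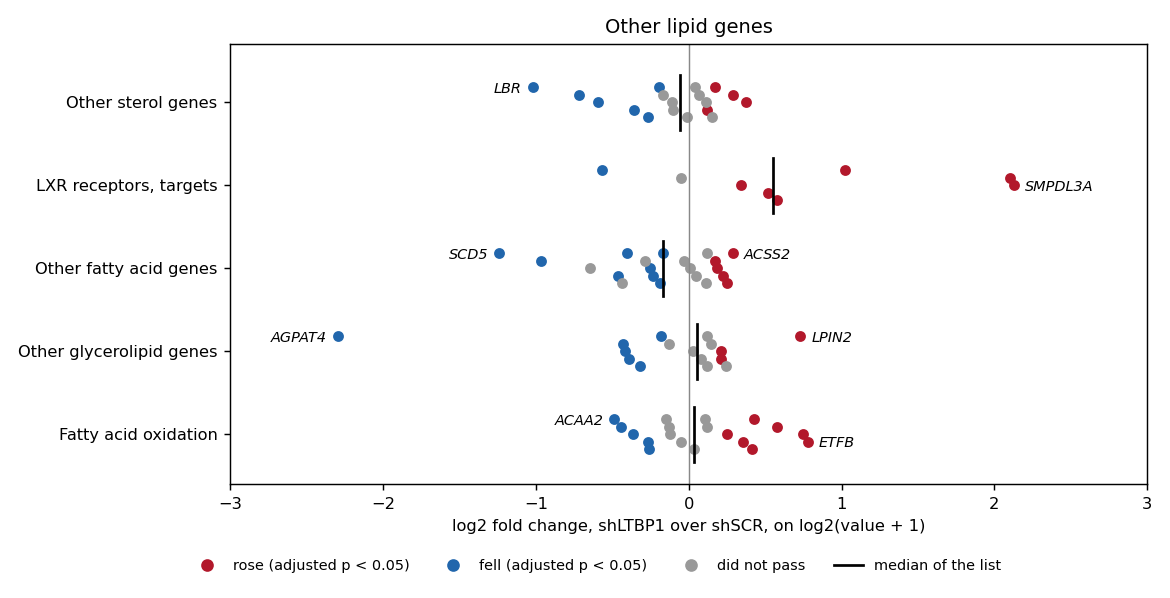
Log2 fold change (x axis, shLTBP1 over shSCR on the log2(value + 1) scale) of tested genes in 5 further lipid lists; each point is a gene and the black bar the median of its list. The LXR list has a median of 0.55 and holds SMPDL3A and ABCG1, while the medians of the other lists lie between -0.17 and 0.06.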

How the data were processed

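RNA-seq values of 3 shSCR and 3 shLTBP1 libraries were compared, grouped by sample title; the labels name a directional library kit. The submitters' processing notes name FastQC 0.10.1, STAR 2.7.3a, RSEM 1.3.1, DESeq2 and hg38; the annotation, strand setting and filters were not given in the sources used. Each deposited value is a signal, a read count per gene after DESeq2 scaling by the authors, as the table is named. Whole reads were not recovered: at most 37.3% of values under 10 were multiples of 1 step within 0.1 of it, so no count test was run and depth is unknown. Exons of 19 of the 40 genes overlap a gene on the opposite strand in GENCODE 29, and their reads may not be separable. The same holds on the same strand for TM7SF2 with VPS51, FADS2 with FEN1 and ACSL4 with KCNE5. Exons of CYP51A1, FADS1 and DGAT1 also overlap other genes on the same strand.

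Tests used limma (version 3.58.1, run in R 4.3.3) and took log2(value + 1) of the 12789 genes with a mean of at least 10, with group as the only term (4 residual and 5.6 prior degrees of freedom), trended variance moderation, and two-sided p-values adjusted by the Benjamini-Hochberg method over all of them at 0.05. The script was tested on simulated data. Positions and the longest coding transcript came from GENCODE 29 (19843 identifiers matched). Neighbour values subtract the median log2 fold change of 25 tested genes on each side. GC and length trends were splines with 4 degrees of freedom. Both were subtracted as fixed values. The p-values of these fits therefore measure the spread among libraries, not that of the neighbours or the trends. Same-numbered libraries did not deviate together (r = -0.0093, 0.058 and -0.00074), so no pairing was used.

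The 40 genes and the lists were chosen with earlier results of these data known. Values of every library are given for INSIG1, SCD, up to 4 genes past the threshold with the largest change in each role, and those that did not pass where a role has 5 or fewer. From each further list, up to 2 genes that rose and 2 that fell most, without overlap and with a mean of at least 50, are named with values of every library, means or a log2 fold change. Of these, 2 genes count in their lists but are not reported here by name.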

Additional observations from a re-analysis of the deposited data

How the results depend on the processing

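Over 17 alternatives (a pseudocount of 0.5 or 5, every gene kept or only those with a mean of 50, TMM, upper quartile or quantile scaling, moderation without the trend, the replicate block, neighbours subtracted, GC and length trends removed, and each library left out), 610 of 646 values of the 38 tested genes kept their direction and side of the threshold. Another 14 values, of 6 genes that passed in neither fit (PMVK, MVD, EBP, SCAP, FADS1 and GPAM), changed sign. Of the 25 genes past the threshold, 19 kept their call under all of them. Among genes past the threshold, direction turned with neighbours subtracted for ACSL3 (0.014), PNPLA2 (-0.071), AGPAT3 (0.023), HADHA (0.25) and HADHB (0.23), and with GC and length trends removed for ACACA (0.071). The median of the fatty acid genes was -0.137 with neighbours subtracted, -0.104 with GC and length trends removed and -0.0905 with every gene kept; that of the sterol genes was 0.00988 with GC and length trends removed and 0.0307 without shSCR replicate 3. The count of LXR genes that fell went from 1 to 0 with neighbours subtracted. Leaving out 1 library gave 4 to 7 sterol genes that fell. With the replicate block 8 sterol genes rose and 7 fell, and 3 fatty acid genes rose and 7 fell, so it changed none of these counts. Calls of weakly expressed genes are limited by counting error that the normalized values do not show.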

Other observations

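Genes that break down fatty acids moved in both directions. Of 19 tested genes of fatty acid oxidation, 7 rose and 5 fell (median log2 fold change 0.04), against 26.3% and 26.8% of all tested genes. With neighbours subtracted 10 rose and 4 fell (median 0.15). ETFB, a chain of the electron carrier that accepts electrons from the dehydrogenases, rose from 1131 ± 36.5 to 1948 ± 153 (SD, n = 3 each; adjusted p = 8.32e-06), and the isomerase ECI1 from 1019 ± 85.0 to 1709 ± 37.8 (adjusted p = 1.45e-05). ACAA2, a mitochondrial thiolase, fell from 281 ± 23.8 to 199.6 ± 1.73 (adjusted p = 0.00271). HADHB, a chain of the trifunctional protein encoded on chromosome 2, was at -0.44 on the log2 scale (adjusted p = 0.000105), but at 0.23 (adjusted p = 0.00562) with neighbours subtracted.

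Of 16 further tested glycerolipid genes, 3 rose (18.8%) and 6 fell (37.5%), against 26.3% and 26.8% of all tested genes. The median of the 16 was 0.06, or -0.02 with neighbours subtracted. LPIN2, a paralog of LPIN1, was at 854, 825 and 903 in shSCR and 1474, 1322 and 1497 in shLTBP1, opposite in direction to LPIN1 (log2 fold change 0.73, adjusted p = 1.63e-05). AGPAT4, an acyltransferase, fell from 106 ± 18.6 to 21.9 ± 10.2 (SD, n = 3 each; log2 fold change -2.30, adjusted p = 0.000159). ABHD5, the coactivator of the lipase PNPLA2, had a log2 fold change of -0.43 (adjusted p = 0.00144), and PNPLA2 itself of 0.21 (adjusted p = 0.0167), or -0.07 with neighbours subtracted. PNPLA2 lost its call when shSCR replicate 1 or 3, or shLTBP1 replicate 1, was left out (adjusted p = 0.0547 to 0.0677).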
